A study of Xenopus laevis with 9 samples.

Results

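The mitochondrial respiratory chain and the ATP synthase were examined on Affymetrix Xenopus laevis arrays of cranial neural crest, the migratory cell population of the early head that gives rise to much of the facial skeleton. Members were chosen by name alone: all probe sets whose annotated symbol begins with nduf, uqcr, sdha, sdhb, sdhc, sdhd or atp5, or with cox followed by a number. This gave 79 of the 15491 probe sets of the value table, for 58 genes (74 symbols when the copies are counted apart). Of these probe sets 74 carried 1 symbol and 5 carried the symbols of both copies of a gene. Xenopus laevis is allotetraploid, so most genes exist as a long (.L) and a short (.S) homeologous copy, and the array reads some of these copies with separate probe sets.

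The 9 arrays form 3 groups of 3. In the MO13_C13 group, embryos received 10 ng of a morpholino against the metalloprotease ADAM13 together with mRNA for a fusion of GFP and the ADAM13 cytoplasmic domain. In the MO13 group they received 10 ng of the same morpholino, and in the CMO group 10 ng of a control morpholino, so every group was injected and none was left untreated. MO13_C13 and CMO differ in both morpholino and mRNA, whose effects cannot be told apart in that comparison. No group received a control mRNA, so the domain and the mRNA load cannot be told apart either. The mRNA dose is 300 pg in the sample labels and 0.5 ng in the series text, and which was used is not settled by the files. Injection was at the one-cell stage, embryos grew at 15 °C to stages 15 to 17, and explants of cranial neural crest were lysed straight after dissection. How many embryos or explants went into an array is not given, and the whole embryo was injected, so tissues next to the crest carried the reagents too. Replicates 1, 2 and 3 of each group came from the same 3 independent experiments (called experiments 1, 2 and 3 here), which pairs the arrays across groups. A morpholino is an antisense oligonucleotide that blocks translation or splicing of its target.

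Values are log2 intensities after GC-RMA, and all differences below are differences of group means on that log2 scale. In explants, fewer cells of a type and less RNA per cell cannot be told apart. The probe set of adam33.L, the current name of the ADAM13 gene, ran between 9.98 and 10.23 in MO13_C13 arrays, against 3.78 to 4.81 in MO13 arrays and 3.07 to 4.5 in CMO arrays. These MO13 and CMO values lay under the lowest array median of 4.88. The values of adam33.S lay between 1.33 and 1.71 across the arrays of all groups. The mRNA level of a morpholino's target does not measure how far its protein was reduced. Of the 12 probe sets for cranial neural crest markers, 10 lay above the lowest array median of 4.88, and the mean level of the 12 was between 7.73 and 7.86 in MO13_C13 arrays, 7.74 and 8.03 in MO13 arrays and 7.88 and 8.06 in CMO arrays. Markers of muscle and mesoderm (10 of 11 probe sets), multiciliated cells (5 of 5), cement gland and hatching gland (3 of 3) and blood, notochord and endoderm (6 of 6) lay under that median. Neural plate markers (17 probe sets, 3 under the median) had mean levels of 7.99 to 8.17 in MO13_C13 arrays, 7.50 to 8.0 in MO13 arrays and 7.71 to 7.84 in CMO arrays, and epidermis markers (6 probe sets, 3 under it) of 6.18 to 7.04 in MO13_C13 arrays, 6.29 to 6.51 in MO13 arrays and 6.28 to 6.66 in CMO arrays. Crest markers were lower in MO13_C13 than in CMO for 9 of 12 probe sets (median -0.14) and in MO13 than in CMO for 9 of 12 (median -0.165). Neural plate markers were higher in MO13_C13 than in CMO for 13 of 17 (median 0.24) and in MO13 than in CMO for 10 of 17 (median 0.10), and epidermis markers were higher for 4 of 6 (median 0.19) in MO13_C13 and for 2 of 6 (median -0.18) in MO13. Several neural plate probe sets read the same gene, pax6.L among them, so they are not independent. Relative to CMO, 49.4% of all probe sets were higher in MO13_C13 and 48.5% in MO13. No marker of these 3 tissues or of muscle and mesoderm passed an adjusted p of 0.05 in the limma fit without the block. With experiment as a block 1 epidermis probe set was called higher in MO13_C13 than in CMO, as were 0.736% of all probe sets. In that fit 1 muscle and mesoderm probe set was called lower in each comparison with CMO. Of all probe sets 0.762% were called lower in MO13 and 1.02% in MO13_C13. The part of these neighbouring tissues in the results below was not tested.

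The respiratory chain passes electrons from NADH and succinate to oxygen. Complex I (NADH dehydrogenase) and complex II (succinate dehydrogenase) feed electrons through a quinone to complex III (the cytochrome bc1 complex) and on through cytochrome c to complex IV (cytochrome c oxidase). Proton pumping by complexes I, III and IV drives the ATP synthase. Most subunits are nuclear-encoded, and those read here are all of that kind, since no probe set was annotated to a gene of the mitochondrial genome. Early frog embryos carry a large maternal stock of mitochondria. Roles given below are those known from mammalian orthologues.

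Most respiratory chain transcripts differed little from the CMO level in both ADAM13 morpholino groups, and 4 genes passed the test once the shared experiment was taken into account. The complex I subunit ndufs4.S was 2.6-fold lower in MO13 than in CMO. In MO13_C13, the copper chaperone gene cox17.L was 1.82-fold lower than in CMO, the complex I subunit ndufa8.L was 2.01-fold higher and the complex III core subunit uqcrc1.L 1.5-fold higher. These 4 passed an adjusted p of 0.05 over all 15491 probe sets only in limma fits with experiment as a block. They were 1 of 79 between MO13 and CMO, where 1.16% of all probe sets passed. The others were 3 of 79 between MO13_C13 and CMO, where 1.76% passed. Each of these calls was lost when any single experiment was left out. Without the block, limma called 0 of the 79 in each comparison, where 0.0968% (MO13 against CMO), 0.00646% (MO13_C13 against MO13) and 0.142% (MO13_C13 against CMO) of all probe sets passed. The lowest adjusted p values of members were 0.191 between MO13 and CMO (ndufs4.S), 1 between MO13_C13 and MO13, and 0.301 between MO13_C13 and CMO (ndufa8.L). Unadjusted p values under 0.05 were found in the fit without the block for 5, 0 and 6 of the 79 in those comparisons, against 6.87%, 1.36% and 7.15% of all probe sets.

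**Figure D1:**
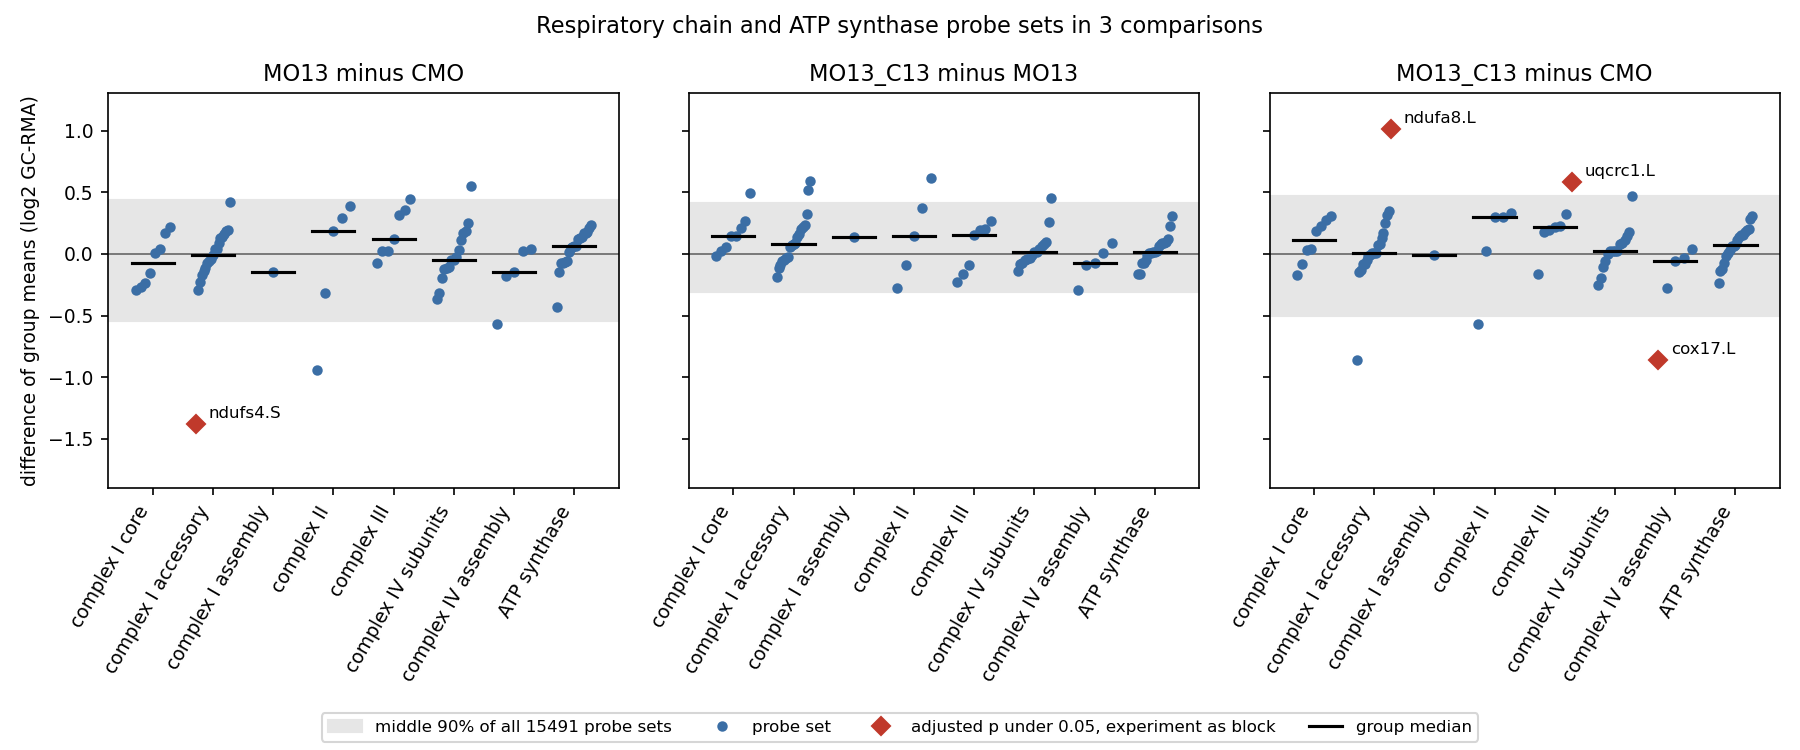
Each point is 1 of the 79 probe sets, placed by complex along the x axis and by the difference of group means (log2 GC-RMA) on the y axis, in the 3 comparisons. Grey marks the middle 90% of all 15491 probe sets, black lines are medians, and red diamonds passed with experiment as a block; most points lie inside the grey band, and ndufs4.S, cox17.L, ndufa8.L and uqcrc1.L are the red ones.

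As a group the members had medians near 0. The median difference was 0.03 between MO13 and CMO, 0.05 between MO13_C13 and MO13 and 0.04 between MO13_C13 and CMO, against medians of -0.01, -0.003 and -0.003 over the whole table. The comparisons with CMO share its 3 arrays and all comparisons share a group, so their values are not independent. Of the 79, 43 were higher and 36 lower in MO13 than in CMO, 50 were higher and 29 lower in MO13_C13 than in MO13, and 52 were higher and 27 lower in MO13_C13 than in CMO. Over all probe sets 48.5%, 49.2% and 49.4% were higher in those comparisons. Of the members 75 lie among the probe sets at or above the table's median level, where the shares higher were 54% between MO13 and CMO, 48.9% between MO13_C13 and MO13 and 55.1% between MO13_C13 and CMO. The shares of these 75 members were 53.3%, 62.7% and 64%, and those of all 79 were 54.4%, 63.3% and 65.8%. By experiment the member median between MO13_C13 and MO13 was 0.07, -0.04 and 0.10, so experiment 2 ran the other way. Between MO13_C13 and CMO the member median was 0.07, -0.01 and 0.12, and between MO13 and CMO 0, 0.05 and 0.02. With arrays centred on their medians, 50 of the 79 were higher in MO13 than in CMO and 38 in MO13_C13 than in MO13. In MO13_C13 relative to CMO 53 were then higher. The shares over all probe sets are not given here for centred arrays.

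With the block, 1 of 79 passed between MO13 and CMO, and it was lower in MO13 (background 1.16%, or 0.762% lower). None of the 79 passed in limma between MO13_C13 and MO13, where 1 probe set of the table passed (0.00646%), higher in MO13_C13. The largest rise of the table in that comparison was 5.73. It was that of adam33.L, the gene of the injected domain, with means of 10.07 in MO13_C13 and 4.34 in MO13. Between MO13_C13 and CMO 3 passed (background 1.76%), 2 of them higher in MO13_C13 (background 0.736%) and 1 lower (background 1.02%). The blocked limma fit gave an unadjusted p under 0.05 for 9 members (11.4%) between MO13 and CMO, 5 (6.33%) between MO13_C13 and MO13 and 11 (13.9%) between MO13_C13 and CMO, against 16.4%, 6.71% and 16.1% of the table. Differences beyond 0.5 in either direction were found for 4 members between MO13 and CMO (background 9.37%), 3 between MO13_C13 and MO13 (background 3.92%) and 5 between MO13_C13 and CMO (background 9.21%). Among probe sets at or above the table's median level these backgrounds were 10.9%, 4.42% and 10.3%. At that level the unadjusted p was under 0.05 for 20.7%, 8.28% and 19.5% of probe sets, and for 12%, 6.67% and 14.7% of members. The median 95% interval of a member reached 0.295 to either side of its difference in the blocked fit. That interval lay within 0.5 of no difference for 52, 55 and 53 of the 79 members, and within 1 for 76, 76 and 74.

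Complex I was read by 8 probe sets of core subunits, 19 of accessory subunits and 1 of an assembly factor. The accessory subunit gene ndufs4.S encodes a small subunit needed for complex I assembly and stability, whose human orthologue is mutated in Leigh syndrome. Its only probe set read 6.15, 6.53 and 6.68 in the MO13_C13 arrays of experiments 1, 2 and 3, 5.84, 5.53 and 6.44 in the MO13 arrays, and 6.95, 7.26 and 7.74 in the CMO arrays. Every MO13 and every MO13_C13 array was below every CMO array, while the MO13_C13 and MO13 arrays overlapped.

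Between MO13 and CMO, ndufs4.S fell by 1.38 with experiment as a block (SE 0.16, adjusted p = 0.0177, limma), and the 3 experiments gave -1.11, -1.73 and -1.30. Without the block the SE was 0.28 and the adjusted p 0.191. In the blocked fit the call was lost when any single experiment was left out, at adjusted p values of 0.0904 without experiment 1, 0.239 without experiment 2 and 0.0807 without experiment 3, while the difference kept its direction. Between MO13_C13 and CMO its difference was -0.86, which did not pass (adjusted p = 0.0512 with the block, 0.499 without). Between MO13_C13 and MO13 its difference was 0.52, with 0.31, 1.00 and 0.24 in the 3 experiments, and did not pass (adjusted p = 0.721 with the block and 1 without, limma).

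The accessory subunit ndufa8.L, a cysteine-rich protein of the intermembrane space side of complex I, was highest in the MO13_C13 group. It read 8.89, 8.87 and 9.23 in MO13_C13 arrays, 7.87, 8.33 and 9.01 in MO13 arrays, and 7.89, 8.0 and 8.07 in CMO arrays. MO13_C13 lay wholly above CMO, and MO13 ranged from the CMO level in experiment 1 to near the MO13_C13 level in experiment 3. With the block ndufa8.L rose by 1.01 in MO13_C13 relative to CMO (95% interval 0.58 to 1.44, adjusted p = 0.0462, limma; 0.301 without the block), and the experiments gave 1.00, 0.87 and 1.16. Its differences between MO13 and CMO (0.42) and between MO13_C13 and MO13 (0.59) did not pass, at adjusted p values of 0.316 and 0.721 with the block.

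Other complex I members did not pass in any comparison. Among the core subunits, some of which carry the flavin and iron-sulfur clusters, the flavoprotein ndufv1.L differed by 0.22 between MO13 and CMO and by 0.27 between MO13_C13 and CMO, and ndufs8.L by 0.17 and 0.31. By experiment ndufv1.L gave 0.48, 0.13 and 0.05 between MO13 and CMO. Its mean difference there was 0.022 without the CMO array of experiment 1, with the MO13 array of that experiment kept. The iron-sulfur subunit gene ndufs7 was lower in MO13 than in CMO on its separate probe sets (-0.30 for ndufs7.L, -0.27 for ndufs7.S) but not on the probe set annotated to both copies (0.04). For ndufs7.S this difference came mostly from experiment 1, with -0.67, -0.15 and 0.02 by experiment. It read 9.15, 9.07 and 9.33 in MO13_C13, 7.90, 8.74 and 9.44 in MO13, and 8.57, 8.89 and 9.42 in CMO. Without the MO13 array of experiment 1, but with the low CMO array of that experiment kept, the unpaired difference of ndufs7.S was 0.13. Core subunits had a median difference of -0.07 between MO13 and CMO and of 0.11 between MO13_C13 and CMO, and accessory subunits of -0.01 and 0.01. The assembly factor ndufaf7.S, a methyltransferase acting on a core subunit, differed by -0.15 between MO13 and CMO, with 0.32, -0.34 and -0.43 by experiment.

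Complex II was read by 5 probe sets. The iron-sulfur subunit sdhb.S had, after ndufs4.S, the next largest difference between MO13 and CMO among the 79, -0.94 or 1.92-fold lower. It read 8.89, 8.66 and 9.11 in MO13_C13 arrays, 8.40, 8.15 and 9.0 in MO13 arrays, and 8.86, 9.54 and 9.97 in CMO arrays. MO13 and CMO overlapped, because the MO13 array of experiment 3 lay above the CMO array of experiment 1, but MO13 was lower in 3 of 3 experiments. The difference did not pass (adjusted p = 0.0798 with the block and 0.548 without, limma), nor did the -0.57 between MO13_C13 and CMO. The flavoprotein subunit sdha had differences of 0.29 (.L) and 0.39 (.S) between MO13 and CMO, the .S probe set being under the array medians. For the membrane anchor sdhd, the probe set annotated to both copies differed by 0.62 between MO13_C13 and MO13, with the MO13 array of experiment 1 at 4.93 and its other 8 arrays between 5.66 and 6.39.

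**Figure D2:**
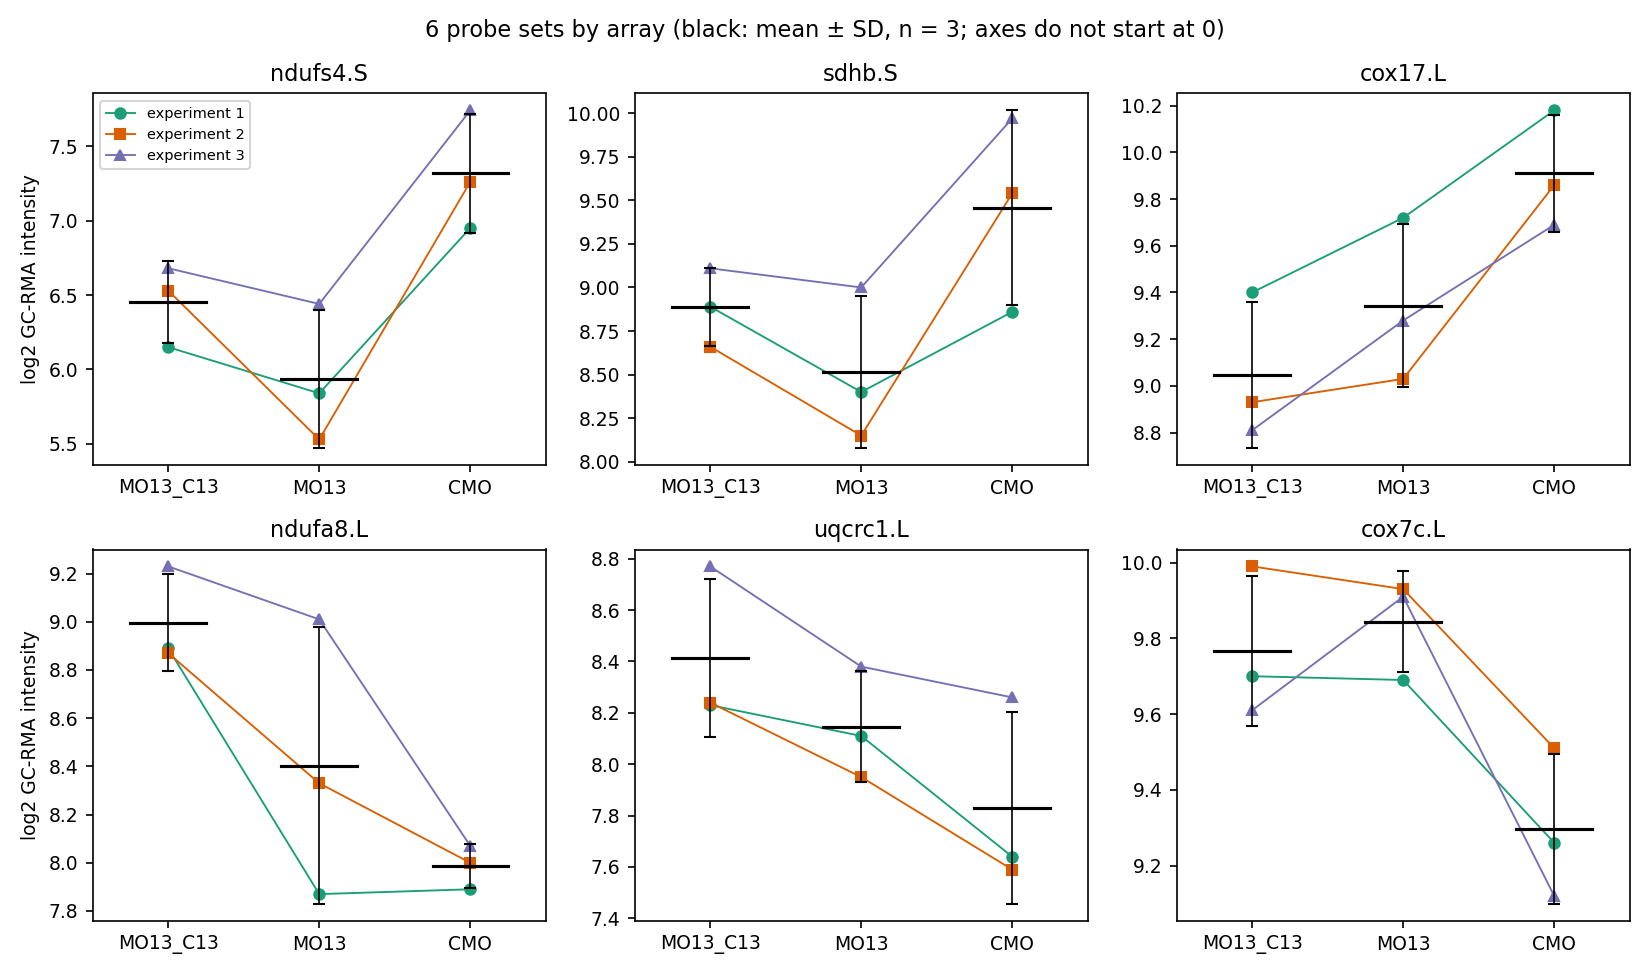
Log2 GC-RMA intensity (y axis) of 6 probe sets in the MO13_C13, MO13 and CMO arrays (x axis), with arrays of 1 experiment joined by a line and black marks for mean and SD (n = 3). ndufs4.S is lower in every MO13_C13 and MO13 array than in any CMO array, and cox17.L is lowest in MO13_C13 in each experiment.

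Complex III was read by 7 probe sets, of which 6 were higher and 1 lower both in MO13 and in MO13_C13 relative to CMO, with medians of 0.12 and 0.22. Of all probe sets 48.5% and 49.4% were higher, and 54% and 55.1% of those at or above the table's median level. Several of the 7 read the same gene, uqcrc2, so they are not independent. The core subunit uqcrc1.L read 8.23, 8.24 and 8.77 in MO13_C13 arrays, 8.11, 7.95 and 8.38 in MO13 arrays, and 7.64, 7.59 and 8.26 in CMO arrays. The groups overlapped through the high CMO array of experiment 3, yet within every experiment the order was MO13_C13, then MO13, then CMO. It rose by 0.58 in MO13_C13 relative to CMO with the block (adjusted p = 0.0479, limma), and did not pass without it (0.638) or with experiment as a random block (0.101). The small subunit uqcrq.S read 9.78, 9.41 and 9.61 in MO13_C13, 9.97, 9.67 and 9.64 in MO13, and 9.58, 9.35 and 9.28 in CMO. All MO13 arrays of uqcrq.S lay above all CMO arrays, and its difference of 0.36 did not pass (adjusted p = 0.141 with the block and 0.711 without, limma). The second core subunit uqcrc2 differed between MO13 and CMO by 0.45 on the .L probe set, 0.03 on the .S probe set and 0.12 on the one annotated to both copies. The .L value rested on experiment 1, which gave 1.12 against 0.09 and 0.13 in experiments 2 and 3, and was 0.11 without experiment 1. The Rieske iron-sulfur protein uqcrfs1, on a probe set annotated to both copies, read 12.01, 12.05 and 12 in MO13_C13, above the 11.64 to 11.98 of MO13 and the 11.70 to 11.93 of CMO.

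Complex IV was read by 15 probe sets of subunits, ndufa4 included, and 5 of assembly factors. The assembly factor cox17.L, which carries copper for the assembly of the enzyme, read 9.40, 8.93 and 8.81 in MO13_C13 arrays, 9.72, 9.03 and 9.28 in MO13 arrays, and 10.18, 9.86 and 9.69 in CMO arrays. MO13_C13 lay wholly below CMO, and MO13 overlapped with both. In MO13_C13 relative to CMO, cox17.L fell by 0.86 with the block (95% interval -1.14 to -0.59, adjusted p = 0.0209, limma; 0.32 without the block), with -0.78, -0.93 and -0.88 by experiment. The difference between MO13 and CMO was -0.57 and did not pass (adjusted p = 0.0751 with the block). Between MO13_C13 and MO13 neither cox17.L (-0.30) nor uqcrc1.L (0.27) passed, each at an adjusted p of 0.721 with the block in limma. The calls for cox17.L, ndufa8.L and uqcrc1.L were also lost when any single experiment was left out, at adjusted p values between 0.115 and 0.364 in the blocked fit.

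The small subunit cox7c.L had the largest positive difference of the 79 between MO13 and CMO, 0.55. It read 9.70, 9.99 and 9.61 in MO13_C13 arrays, 9.69, 9.93 and 9.91 in MO13 arrays, and 9.26, 9.51 and 9.12 in CMO arrays. MO13_C13 and MO13 each lay wholly above CMO, but neither the difference of MO13 (adjusted p = 0.0781 with the block, 0.393 without) nor the 0.47 of MO13_C13 (0.10 and 0.488) passed in limma. Subunit cox4i1.S was read by a pair of probe sets that differed by -0.36 and -0.31 between MO13 and CMO, each with its lowest value, 8.32 and 8.12, in the MO13 array of experiment 1. The remaining subunits lay between -0.20 and 0.25 in that comparison. The assembly factors cox10.L, which makes the heme A precursor, and cox7a2l.L, which joins complexes III and IV, differed by 0.04 and 0.03.

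The ATP synthase was read by 19 probe sets, none of which passed in any comparison. Their differences lay between -0.43 and 0.24 in MO13 relative to CMO (median 0.06), between -0.17 and 0.31 in MO13_C13 relative to MO13 (median 0.02), and between -0.24 and 0.30 in MO13_C13 relative to CMO (median 0.07). The subunits atp5f1a.L and atp5f1b.S differed by -0.07 and 0.13 between MO13 and CMO. The lowest of the 19 was the inhibitory factor gene atp5if1.L, whose product stops the enzyme from running in reverse. It read 8.13, 8.05 and 8.15 in MO13_C13, 7.34, 8.03 and 8.04 in MO13, and 8.24, 8.10 and 8.36 in CMO. MO13 lay wholly below both other groups, with the MO13 array of experiment 1 well below all others, and the -0.43 did not pass (adjusted p = 0.279 with the block and 0.741 without, limma).

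Counting members whose groups did not overlap gave 5 of 79 between MO13 and CMO. Of these uqcrq.S and cox7c.L were higher in MO13 (background 4.85%), and ndufs4.S, atp5if1.L and ndufa3.L lower (background 5.06%). In either direction the background was 9.92%. Between MO13_C13 and MO13 there were 2, atp5if1.L and uqcrfs1, both higher in MO13_C13 (background 1.96% higher and 4.51% in either direction). Between MO13_C13 and CMO there were 13 (background 12.6%). Higher were 10 of them (background 6.13%): ndufa8.L, ndufa9.L, ndufs8.L, sdha.S, uqcrfs1, cox7c.L and 4 of the ATP synthase, atp5f1c.S, atp5f1d.L, atp5pb.L and the probe set annotated to both atp5mc1 copies. Lower were 3 (background 6.42%), ndufs4.S, cox16.L and cox17.L. Of the 75 members at or above the table's median level, 12 (16%) did not overlap there, against 14.3% of all probe sets at that level. In the same comparison 24 members were higher and 11 lower in 3 of 3 experiments (background 19.1% higher and 19.8% lower).

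For 14 genes both copies had a probe set of their own, and the change of the .L minus .S value was fitted over the 1017 such pairs of the table. In MO13_C13 relative to CMO the cox17 pair was the 1 of 14 that passed with the block, when 1.57% of the 1017 pairs did: cox17.L changed by -0.86 and cox17.S by -0.06, a difference between copies of -0.81 (adjusted p = 0.0488 with the block and 0.265 without, limma). The cox17.S probe set read 9.02, 8.59 and 8.90 in MO13_C13, 8.82, 8.64 and 8.79 in MO13, and 8.95, 8.92 and 8.81 in CMO, with the groups overlapping. The cox7c pair differed by 0.60 between MO13 and CMO (0.55 for .L and -0.05 for .S) and did not pass (adjusted p = 0.0953 with the block and 0.349 without). How far probe sets of near-identical copies share signal is not known from the files.

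**Figure D3:**
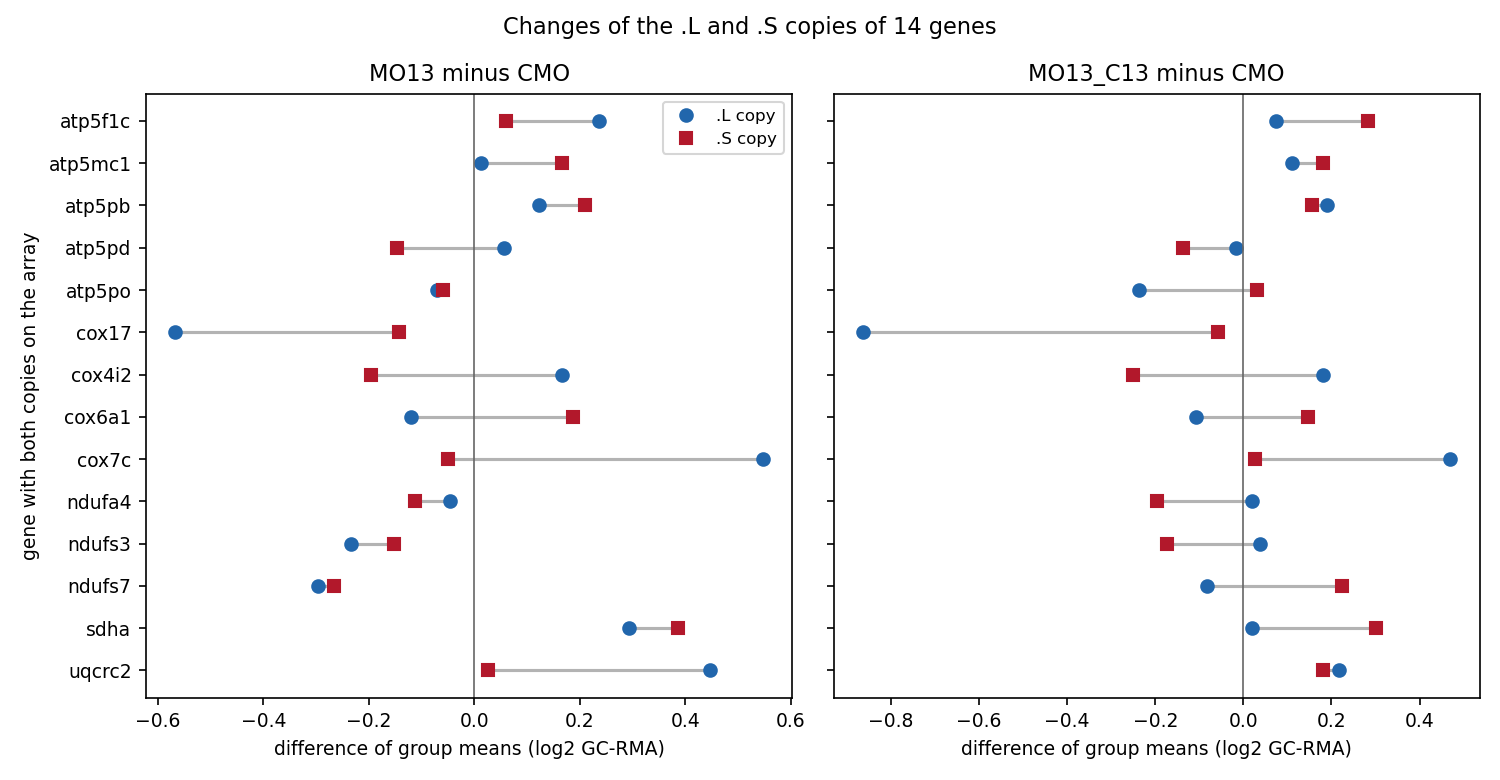
Differences of group means (x axis, log2 GC-RMA) of the .L copy (blue circles) and .S copy (red squares) of the 14 genes with separate probe sets (y axis), for MO13 minus CMO and MO13_C13 minus CMO. The copies of cox17 are 0.81 apart in the right panel and those of cox7c 0.60 apart in the left one.

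For 53 of the 79 members experiments took a larger part of the spread than groups did, as for 69.5% of the table. Summed over the 79 probe sets, the difference between experiments took 53.6% of the sum of squares and that between groups 25.4%, against 57.6% and 22.5% over all probe sets, and without cox4i2.S the members' shares were 45.9% and 29.5%. The widest range was that of cox4i2.S, an alternative form of the complex IV regulatory subunit that hypoxia raises in mammals. It read 9.66, 9.59 and 7.64 in MO13_C13, 9.86, 9.52 and 7.67 in MO13, and 10.04, 9.75 and 7.85 in CMO, with experiment means of 9.85, 9.62 and 7.72, so experiment 3 was the low one in every group. Next was cox6a1.S, with experiment means of 9.52, 10.28 and 9.0. Only these 2 members, against 9.13% of all probe sets, had experiment means more than 1 apart, and the median range was 0.28 for the members and 0.33 for the table.

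**Figure D4:**
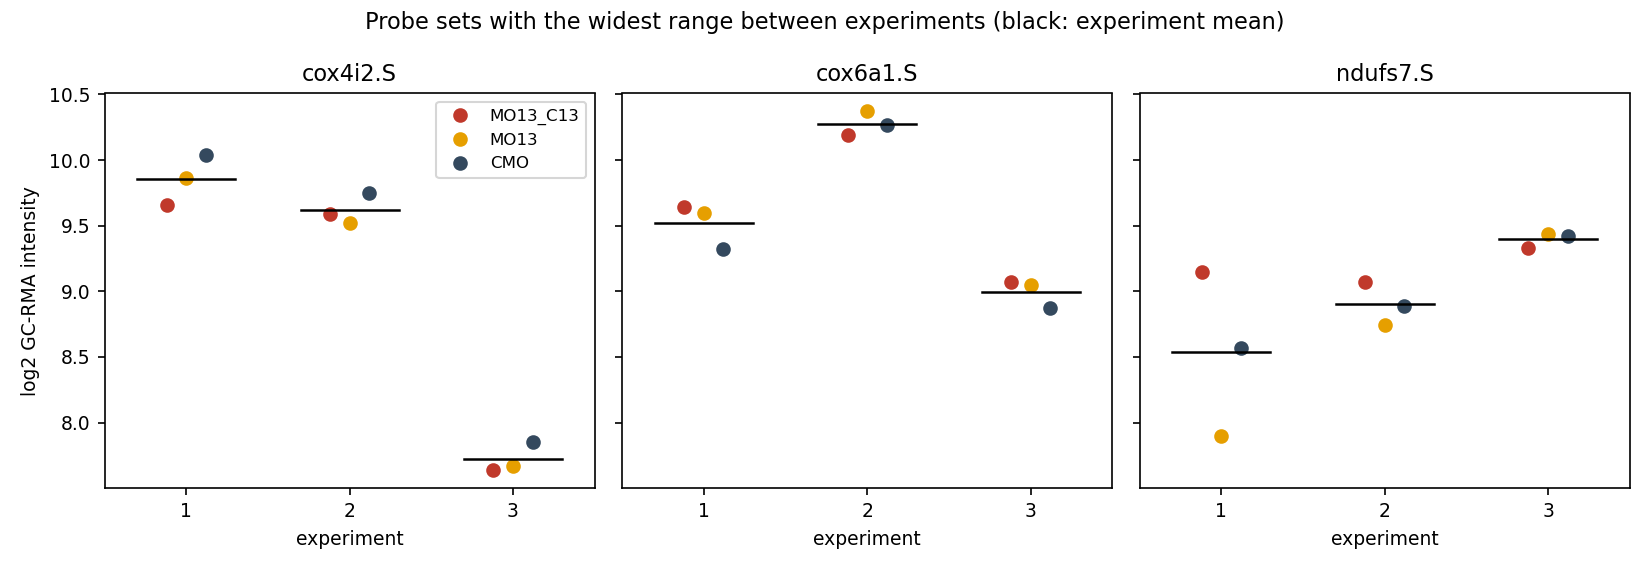
Log2 GC-RMA intensity (y axis) of the 3 probe sets with the widest range of experiment means, by experiment (x axis) and group (colours), with black lines for the experiment means. cox4i2.S is low in experiment 3 in all groups, cox6a1.S is high in experiment 2, and ndufs7.S has 1 low MO13 array in experiment 1.

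The MO13 array of experiment 1 held the extreme of the 9 arrays more often than any other array. It was the lowest array for 21 of the 79 members (26.6%), against 17.7% of all probe sets, and the highest for 15 of them (19.0%), against 17.0%. Among probe sets at or above the table's median level, where 75 members lie, it was lowest for 19.8% and highest for 21.1%. The members lowest there include ndufs7.S, sdhd, both cox4i1.S probe sets and atp5if1.L, and those highest there include sdha.L, uqcrc2.L and atp5f1c.L. For ndufs4.S, cox17.L, sdhb.S and uqcrc1.L the lowest and highest arrays were other ones, and ndufa8.L had its lowest value there.

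The genes around the respiratory chain were read from lists of related functions. Of 22 further chain probe sets (cytochrome c, quinone synthesis and assembly factors), 12 were higher and 10 lower in MO13 than in CMO (median 0.05). With the block 1 of the 22 passed, lower in MO13 (background 0.762% lower). This was the complex I assembly factor timmdc1.L, with a mean of 6.37 in MO13_C13, 6.02 in MO13 and 7.18 in CMO. Its difference between MO13 and CMO was -1.16 (-1.01, -1.32 and -1.15 by experiment, adjusted p = 0.0291 with the block and 0.644 without, limma), and the -0.81 between MO13_C13 and CMO did not pass (0.0652 with the block). Of 36 probe sets for the citric acid cycle and pyruvate entry, 23 were higher and 13 lower (median 0.15). There pdk4.S, a kinase that shuts off pyruvate dehydrogenase, rose by 0.95 in MO13 relative to CMO (adjusted p = 0.0450 with the block, 0.159 without) and by 1.24 in MO13_C13 relative to CMO (0.0172 with the block and 0.0617 without). It was the 1 of the 36 that passed with the block in each of these comparisons (background 0.394% and 0.736% higher). Its other copy pdk4.L, on a probe set under the array medians, differed by -0.54 and -0.46 in those comparisons and did not pass (0.0954 and 0.133 with the block).

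Of 31 glycolysis probe sets, 13 were higher and 18 lower in MO13 than in CMO (median -0.04), and none passed in either limma fit, with 9 (background 16.4%) at an unadjusted p under 0.05 in the blocked one. In MO13_C13 relative to CMO, gapdh.L fell by 0.75 (adjusted p = 0.0411 with the block) and aldoc.L by 1.36 (0.0355), both without a call in the fit lacking the block. These were the 2 of the 31 called with the block there (background 1.02% lower). The aldoc.L means of 4.44 in MO13_C13 and 4.66 in MO13 lay under the lowest array median of 4.88, and that in CMO was 5.80. Whether the calls for timmdc1.L, pdk4.S, gapdh.L and aldoc.L hold without single experiments was not tested. Of 41 mitochondrial ribosome probe sets, 14 were higher and 27 lower in MO13 than in CMO (median -0.10), 32 were higher and 9 lower in MO13_C13 than in MO13 (median 0.11), where 48.5% and 49.2% of all probe sets were higher, and none passed in either limma fit. In the blocked fit the unadjusted p was under 0.05 for 9 of the 41 between MO13 and CMO (background 16.4%) and for 7 between MO13_C13 and MO13 (background 6.71%). None passed in any comparison among 28 import, 8 carrier and 15 regulator probe sets, whose medians between MO13 and CMO were 0.01, 0.04 and -0.04. In the blocked limma fit 4, 2 and 3 of these had an unadjusted p under 0.05 between MO13 and CMO (background 16.4%).

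The authors' deposited table of genes affected by the loss of ADAM13 held 29 of the 79 members (36.7%), 18 of them higher and 11 lower in MO13, against 39.5% of all probe sets of the array values. The authors' deposited table for the addition of the cytoplasmic domain held 11 members (13.9%), 9 higher and 2 lower, against 13.5% of all. All 11 were also among the 29, and both comparisons use the MO13 arrays, so their directions are not independent. The sources used here do not state the test behind these tables.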

How the data were processed

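Total RNA of cranial neural crest explants was amplified, labelled with biotin and hybridised to 9 single-colour Affymetrix arrays, 3 per group. Per the submitters' processing notes, the authors ran GC-RMA through Affymetrix Expression Console and deposited the resulting log2 intensities, 1 per probe set. Versions of these tools were not given in the sources used here. The authors' deposited tables hold the same log2 values. Detection calls were not used, so low signal and background are not separated.

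Group means were compared with limma 3.58.1 in R 4.3.3 (lmFit and eBayes) over all 15491 probe sets and 9 arrays, two-sided, with Benjamini-Hochberg adjustment over the whole table and a threshold of 0.05. The main fit had group as its only term, and the first alternative added experiment as a block. The labels name the shared experiments. Over all probe sets, deviations from group means correlated at 0.51 to 0.73 within the 9 same-experiment pairs of arrays and at -0.46 to -0.06 in the other 18. Over the members alone the ranges were 0.36 to 0.80 and -0.64 to 0.40, so they overlapped. The deviations within a group sum to 0, so positive correlations within experiments pull the others down. Precision is set by 3 arrays per group. Without the block, p-values rest on the spread of arrays within groups, which includes that between experiments. With the block, they rest on the spread left after group and experiment are taken out. The fits were tested on simulated data.

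All 79 member probe sets had a gene in the RefSeq table, which changed 0 symbols; 9304 probe sets of the table carry 1 symbol, 195 several and 5992 none. Members were placed in complexes by symbol. Genes were named by rule: ndufs4, every member passing in any fit, per comparison the 6 higher and 6 lower members of smallest unadjusted p, 3 per complex and per related list, those with the widest range between experiments, and genes with several probe sets; other members named for an extreme array or a low difference were chosen after their values were seen. Members, related lists and markers were chosen with earlier results of these data known. The alternatives added after seeing the data were the fit of the difference between copies and the blocked fit without each experiment.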

Additional observations from a re-analysis of the deposited data

How the results depend on the processing

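In this balanced design a block, a random block, a trended prior variance or only the compared arrays leave each difference of group means unchanged. So do leaving out dim probe sets and keeping 1 probe set per gene. Directions of members could not change under these settings, while counts of calls did. Centring turned 7 of the 79 between MO13 and CMO (cox7c.S to 0.0133), 12 between MO13_C13 and MO13 and 1 between MO13_C13 and CMO, each under 0.1 in size before it. With experiment as a block, 179 (MO13 against CMO) and 272 (MO13_C13 against CMO) probe sets passed over the table, against 15 and 22 in the fit without it, and 1 and 3 of the respiratory chain against 0 and 0. With a random block these were 144 and 239, and 1 and 2. Fitting only the compared arrays gave 0 and 9, a trended prior 5 and 10, and leaving out dim probe sets 9 between MO13 and CMO. Centring the arrays moved the members' median between MO13 and CMO to 0.09. Without single arrays or experiments the table's counts ran from 0 to 14 (MO13 against CMO), 0 to 1 (MO13_C13 against MO13) and 0 to 23 (MO13_C13 against CMO), and in the blocked fit without single experiments from 0 to 7, 0 to 1 and 1 to 34. The members' count was 0 in all of these, and their medians ran from -0.0033 to 0.0417, 0.0083 to 0.105 and 0.0233 to 0.095. Without single arrays of the compared groups or single experiments, 60 to 72, 55 to 74 and 63 to 71 of the 79 members kept their direction in those comparisons. Leaving out an array of the group not compared cannot move a difference. Of the 64 member differences followed singly (those chosen by rule or printed), 15 turned. Between MO13 and CMO these were ndufaf7.S (-0.385 to 0.04), ndufs7.S (-0.64 to 0.13), the shared ndufs7 probe set (-0.282 to 0.298), uqcrc2.S (-0.19 to 0.345), the shared uqcrc2 probe set (-0.055 to 0.33), cox7c.S (-0.102 to 0.015), cox10.L (-0.0517 to 0.15), cox7a2l.L (-0.12 to 0.177), atp5f1a.L (-0.203 to 0.035) and atp5f1b.S (-0.015 to 0.225). Between MO13_C13 and MO13 they were atp5f1c.L (-0.42 to 0.085), ndufc2.S (-0.39 to 0) and uqcrc2.L (-0.54 to 0.105), and between MO13_C13 and CMO cox4i2.S (-0.932 to 0.412) and cox17.S (-0.148 to 0.08). Leaving out 1 array keeps its experiment in the other group, so differences between experiments enter these ranges. With arrays paired by experiment, cox4i2.S gave -0.38, -0.16 and -0.21 between MO13_C13 and CMO, and cox17.S 0.07, -0.33 and 0.09. Paired in the same way, cox7a2l.L gave 0.03, 0.03 and 0.02 between MO13 and CMO. The cause of these changes was not tested. Beside ndufs4.S, cox17.L, ndufa8.L and uqcrc1.L, none of those followed singly changed its call with the block. With 3 arrays per group, differences smaller than about 0.295 lay within the median member's 95% interval in the blocked fit.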
